A study of Mus musculus with 6 samples.

Results

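Troponin is the calcium switch of striated muscle, and the results below concern its 8 mouse genes. They were chosen by symbol from the deposited gene table, and all 8 were among its 24532 genes. Poly(A)-selected RNA had been sequenced from gastrocnemius, a calf muscle composed mainly of fast fibres in the mouse, of 6 C57BL/6 mice aged 12 weeks. In 3 knockout mice, floxed Usp21 alleles were combined with Ckmm-Cre, a Cre recombinase under the muscle creatine kinase promoter, which is active in skeletal and heart muscle. The 3 control mice carried the floxed Usp21 alleles alone, so both groups share those alleles. The controls' genotype is entered as Litter in the labels, and the series text calls them WT. Litters are not identified, and the p-values below reflect variation among these 6 libraries, part of which may be technical.

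Each troponin complex holds a troponin C, which binds calcium, a troponin I, which inhibits the interaction of actin with myosin, and a troponin T, which ties the complex to tropomyosin on the thin filament. Slow fibres use Tnnc1, Tnni1 and Tnnt1, and fast fibres use Tnnc2, Tnni2 and Tnnt3. Heart muscle uses Tnni3 and Tnnt2 and shares Tnnc1 with slow skeletal fibres. The ratio of slow to fast troponin transcripts is therefore commonly read alongside the myosin isoforms when the fibre makeup of a muscle is described. In whole muscle RNA, fewer fibres of a type and less RNA per fibre cannot be told apart.

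Total counts lay between 53906493 and 65425324 in knockout libraries and between 48658436 and 67332846 in control libraries. Usp21 was at 9.08, 7.19 and 7.47 CPM (library-size-scaled counts, with TMM factors) in knockouts 1 to 3, against 19.3, 19.3 and 19.2 CPM in controls 1 to 3 (log2 fold change -1.28, SE 0.11, edgeR adjusted p = 0.0355). The call was lost without control 1 (adjusted p = 0.186), control 2 (0.129), control 3 (0.0944) or knockout 2 (0.154), and with limma on log2 of FPKM plus 1 (0.0657) or plus 0.1 (0.0552). Defining transcripts of skeletal muscle were abundant in every library, with the muscle creatine kinase gene Ckm between 22601 and 34506 CPM. The library of control 3 stood apart for slow fibre genes and for some other genes, so results on slow troponins are given with and without it. Over 12131 tested genes with a mean of at least 1 CPM, 17 (0.140%) stood at least 10-fold below the median of the other 5 libraries in control 3, against 4 to 8 in each of the other libraries. That 10-fold limit was chosen after the values were seen. All 3 slow troponin genes were among the 17, as was Myh7, the slow myosin heavy chain. Genes outside the slow fibre list were among them too, such as Rps27, Hba-a2 and Ccl21a, picked after the values were seen. What set this library apart was not tested.

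The 8 genes lie on 4 chromosomes, and 6 of them form pairs of a troponin I and a troponin T gene. Positions are those of RefSeq on GRCm38.p6. Tnni1 (Entrez 21952; chromosome 1, 135783033 to 135810989) and Tnnt2 (21956; 135836315 to 135852268) are 25325 bases apart. Tnnt1 (21955; chromosome 7, 4504569 to 4515975) and Tnni3 (21954; 4518305 to 4522718) are 2329 bases apart. Tnni2 (21953; chromosome 7, 142441816 to 142444410) and Tnnt3 (21957; 142498771 to 142516213) are 54360 bases apart. Slow and cardiac members are therefore neighbours in 2 of the pairs, and the third pair is fast only. The troponin C genes stand alone, Tnnc1 (21924) on chromosome 14 (31208312 to 31211729) and Tnnc2 (21925) on chromosome 2 (164777161 to 164779734).

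The start regions of the slow genes are shown because their levels moved together across libraries. Tnnt2 is shown because it neighbours Tnni1 and did not follow it, and Tnnc2 as a fast gene. Each window runs from 250 bases before to 50 bases after a RefSeq start, 5′ to 3′ on the gene's strand, with sequences from RefSeq GRCm38.p6. Of the 8 members 6 had a window, and Tnni2 and Tnnt3 are named only. Capitals mark E-boxes (CANNTG, the letters bound by MyoD-family factors), the MCAT element (CATTCC on either strand, bound by TEAD factors) and TATAAA on either strand. No base of the printed windows fell in more than 1 of these motifs. For Tnni1 and Tnnt2 the first of 2 listed starts is used. Both listed Tnni1 starts lie inside the locus given above, and no window covers its lower end at 135783033. The windows are chr1:135799171-135799470 (plus strand) for Tnni1, chr7:4515926-4516225 (minus) for Tnnt1, chr14:31208062-31208361 (plus) for Tnnc1, chr1:135836084-135836383 (plus) for Tnnt2 and chr2:164779685-164779984 (minus) for Tnnc2.
Tnni1: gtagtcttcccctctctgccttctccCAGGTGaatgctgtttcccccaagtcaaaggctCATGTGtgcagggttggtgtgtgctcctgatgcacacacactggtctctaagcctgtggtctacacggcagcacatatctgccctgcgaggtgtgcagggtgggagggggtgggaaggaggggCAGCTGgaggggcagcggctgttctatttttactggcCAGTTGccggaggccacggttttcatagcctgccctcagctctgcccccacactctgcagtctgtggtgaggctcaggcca
Tnnt1: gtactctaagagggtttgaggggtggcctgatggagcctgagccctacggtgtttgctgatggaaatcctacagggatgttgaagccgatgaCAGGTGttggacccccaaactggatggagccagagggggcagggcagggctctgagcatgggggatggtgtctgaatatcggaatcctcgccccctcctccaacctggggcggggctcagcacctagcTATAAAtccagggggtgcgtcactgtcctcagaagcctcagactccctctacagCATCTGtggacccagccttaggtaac
Tnnc1: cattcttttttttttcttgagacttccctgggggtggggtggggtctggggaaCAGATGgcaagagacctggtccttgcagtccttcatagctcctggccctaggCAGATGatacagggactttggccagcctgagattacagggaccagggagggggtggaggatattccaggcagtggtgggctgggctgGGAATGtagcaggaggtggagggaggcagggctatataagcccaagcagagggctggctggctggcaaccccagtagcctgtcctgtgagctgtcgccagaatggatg
Tnnt2: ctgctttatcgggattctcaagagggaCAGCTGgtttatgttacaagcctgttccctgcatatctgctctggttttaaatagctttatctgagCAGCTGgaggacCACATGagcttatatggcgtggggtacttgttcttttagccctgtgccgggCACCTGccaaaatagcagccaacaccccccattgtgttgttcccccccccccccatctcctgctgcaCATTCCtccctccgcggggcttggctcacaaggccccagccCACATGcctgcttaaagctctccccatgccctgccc
Tnnc2: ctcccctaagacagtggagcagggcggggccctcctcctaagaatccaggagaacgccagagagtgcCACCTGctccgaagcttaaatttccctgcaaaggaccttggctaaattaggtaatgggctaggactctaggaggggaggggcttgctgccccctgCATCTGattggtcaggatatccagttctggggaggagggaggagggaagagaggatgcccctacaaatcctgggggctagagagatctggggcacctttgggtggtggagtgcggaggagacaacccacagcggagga

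E-boxes numbered 4 in the Tnni1 window, 2 in Tnnt1, 2 in Tnnc1, 5 in Tnnt2 and 2 in Tnnc2, and 72.3% of all 32851 windows of this length held at least 1. The MCAT letters occurred once in the Tnnc1 window and once in the Tnnt2 window, against 14.7% of all windows. TATAAA occurred once, in the Tnnt1 window, against 13.6% of all windows. The MEF2 consensus (3.19% of all windows) and the CArG consensus (1.63%), both searched on either strand, had no match in the windows of the 6 members. The 3 slow windows thus held no motif in common among those searched other than the E-box, which most windows hold.

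The fast genes made up nearly all troponin transcripts. Per length, Tnnt3, the fast troponin T, was at 20890, 21849 and 20418 FPKM (depth- and length-scaled fragments, as deposited) in knockouts 1 to 3, against 21294, 19856 and 25132 FPKM in controls 1 to 3. It was the second most abundant gene of the table by FPKM in all 6 libraries. Tnni2, the fast inhibitory subunit, was at 10914, 11524 and 11691 FPKM in knockouts, against 11594, 11004 and 13415 FPKM in controls. Tnnc2, the fast calcium sensor, was at 11791, 12020 and 11228 FPKM in knockouts, against 11689, 10598 and 14452 FPKM in controls. For each of these genes the highest library was control 3, and the knockout values lay within the range of the controls or, for Tnni2 in knockout 1, just below it.

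Slow troponins were present at a small fraction of those levels. Tnnt1, the slow troponin T, was at 68.5, 46.8 and 114 FPKM in knockouts 1 to 3, against 75.6, 74.0 and 4.22 FPKM in controls 1 to 3. Tnnc1, the slow and cardiac calcium sensor, was at 63.3, 46.5 and 99.3 FPKM in knockouts, against 69.1, 65.3 and 2.89 FPKM in controls. Tnni1, the slow inhibitory subunit, was at 26.4, 20.6 and 35.5 FPKM in knockouts, against 28.2, 27.3 and 1.01 FPKM in controls. In all 3 genes knockout 3 was the highest library, knockout 2 the lowest of the knockouts and control 3 the lowest of all, with controls 1 and 2 between the knockouts.

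Control 3 held fewer reads of each slow gene than any other library. It held 75 counts of Tnni1, 296 of Tnnt1 and 139 of Tnnc1, whereas the other 5 libraries held between 1225 and 2148 of Tnni1, between 2619 and 6481 of Tnnt1 and between 1788 and 3889 of Tnnc1. On the CPM scale the median of the other 5 libraries was 25.7 times control 3 for Tnni1, 16.1 times for Tnnt1 and 21.6 times for Tnnc1. The fast genes went the other way by a small margin, with control 3 at 1.21 times the median of the others for Tnni2, 1.23 times for Tnnt3 and 1.30 times for Tnnc2.

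**Figure D1:**
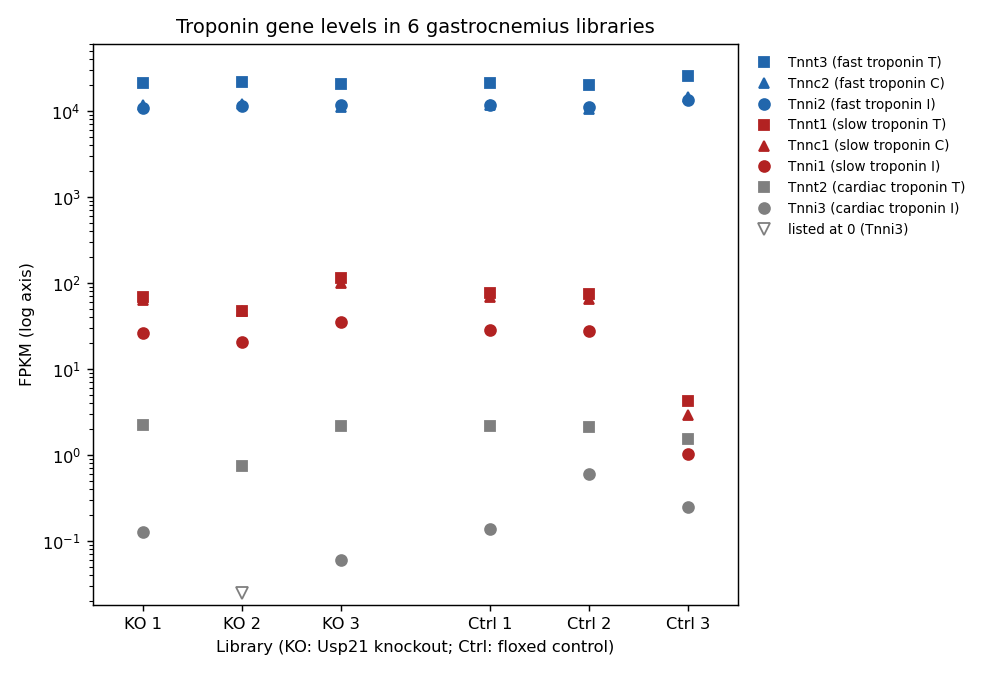
Level of each of the 8 troponin genes in FPKM (log axis) in the 6 libraries, knockouts at the left and controls at the right; colour gives the fibre type and marker shape the subunit, and an open triangle marks Tnni3 in knockout 2, listed at 0. The fast genes lie between 10598 and 25132 FPKM, and the 3 slow genes drop together in control 3.

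Transcripts of the cardiac forms were scarce. Tnnt2, the cardiac troponin T, which is also made in developing skeletal muscle, was at 2.22, 0.731 and 2.14 FPKM in knockouts, against 2.18, 2.11 and 1.51 FPKM in controls. Knockout 2 was the lowest library, and the other 5 lay between 1.51 and 2.22 FPKM, with control 3 the lowest of them. Tnnt2 did not share the large drop of its neighbour Tnni1 in control 3. There Tnnt2 was at 1.91 CPM (126 counts), against 2.59 and 2.44 CPM in controls 1 and 2 (130 and 158 counts). In that library Tnni1 stood at 0.667 times Tnnt2 per length, compared with 11.9 to 28.2 times in the other 5.

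Tnni3, the cardiac troponin I, had 8, 0 and 4 counts in knockouts 1 to 3, against 7, 34 and 16 counts in controls 1 to 3. The count of 0 in knockout 2 allows up to 0.0595 CPM, counting error only. In CPM the groups did not overlap (0.123, 0 and 0.0730 in knockouts, against 0.140, 0.525 and 0.242 in controls), as was the case on the log2 scale for 17.3% of all tested genes. The gene did not pass the filter on low counts, and with no filter edgeR gave -2.14 on the log2 scale, with an SE of 1.02 and an adjusted p of 0.547. Its neighbour Dnaaf3, which GENCODE vM21 places on the same strand with 86 exonic bases shared with Tnni3, had 24, 8 and 12 counts in knockouts, against 23, 38 and 26 counts in controls. Both genes were highest in control 2 and had their lowest knockout value in knockout 2, and whether reads were divided between them was not tested.

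Heart muscle markers were measured beside them. Of the 10 cardiomyocyte markers listed, Myl7, Nppa, Nppb, Mybpc3 and Nkx2-5 had no count in any library. The summed level of the list was 14.0, 6.84 and 23.6 CPM in knockouts, against 13.5, 15.9 and 2.38 CPM in controls. Most of it in every library but control 3 was Myh6, at 12.3, 6.03 and 21.4 CPM in knockouts, against 12.7, 14.4 and 0.893 CPM in controls (log2 fold change 0.50, SE 0.84, edgeR adjusted p = 0.854), with an estimate of -0.038 without control 3. Hcn4, a pacemaker channel, was at 1.70, 0.813 and 2.21 CPM in knockouts, against 0.838, 1.33 and 1.42 CPM in controls (0.39, SE 0.40, adjusted p = 0.739). Control 3 was low for Myh6 and not for Hcn4, and neither gene passed. Myh6 is nearly identical to Myh7 over long stretches, and how reads were assigned to either gene is uncertain.

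Ordered by median FPKM over the 6 libraries, the genes ran Tnnt3, Tnnc2, Tnni2, Tnnt1, Tnnc1, Tnni1, Tnnt2 and Tnni3. The steps from Tnnt3 to Tnnc2 and from Tnni2 to Tnnt1 were wider than the spread of all libraries, as was that from Tnnt2 to Tnni3. Tnnc2 and Tnni2 did not differ beyond their spread, with Tnnc2 the higher in 4 of 6 libraries. Tnnt1 was above Tnnc1 in 6 of 6 libraries and Tnnc1 above Tnni1 in 6 of 6, although the ranges of neighbours overlapped. Tnni1 was above Tnnt2 in 5 of 6 libraries, the exception being control 3.

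The comparison of knockout with control muscle asked whether the knockout, in which Usp21 RNA was lower but not absent, was accompanied by a change in the troponin genes. Ckmm-Cre was in every knockout and in no control, so an effect of Cre cannot be told apart from that of Usp21. None of the 7 members tested was called by edgeR at an adjusted p under 0.05, beside 8 of all 14109 genes tested (0.0567%), of which 5 (0.0354%) were higher and 3 (0.0213%) lower in knockouts. At an unadjusted p under 0.05 the members again numbered 0, beside 11.6% of all genes. DESeq2's Wald test called 0 members, beside 2.06% of all genes, and limma-voom 0 members, beside 0.0354%. The median log2 fold change of the 7 members was -0.0030, and that of all tested genes was -0.0037.

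For the slow genes the estimate was positive and its error larger than the estimate. Tnnc1 averaged 50.6 ± 18.3 CPM in knockouts and 31.2 ± 25.3 CPM in controls (SD, n = 3 each), a log2 fold change of 0.70 with an SE of 0.86 (edgeR adjusted p = 0.793). Tnnt1 averaged 80.4 ± 34.2 CPM in knockouts and 50.9 ± 40.2 CPM in controls (0.66, SE 0.83, adjusted p = 0.795), and Tnni1 30.9 ± 7.61 CPM in knockouts and 19.8 ± 16.2 CPM in controls (0.64, SE 0.86, adjusted p = 0.814). Without control 3 the log2 fold change was 0.14 (SE 0.27) for Tnnc1, 0.12 (SE 0.32) for Tnnt1 and 0.081 (SE 0.19) for Tnni1, with edgeR adjusted p between 0.872 and 0.910.

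The group means of the fast genes differed by less than their error. Tnnt3 averaged 22150 ± 1550 CPM in knockouts and 22196 ± 3620 CPM in controls (SD, n = 3 each), a log2 fold change of -0.0030 with an SE of 0.15 (edgeR adjusted p = 0.996). The log2 fold change was -0.010 (SE 0.13) for Tnni2 and -0.0030 (SE 0.16) for Tnnc2. With DESeq2's size factors the estimates of Tnnt3 (0.00019) and Tnnc2 (7.96e-05) turned positive, while that of Tnni2 stayed negative (-0.0072). Without control 3 they were positive, at 0.13 (SE 0.11) for Tnnt3, 0.11 (SE 0.10) for Tnni2 and 0.17 (SE 0.11) for Tnnc2, and none passed. Tnnt2 averaged 2.10 ± 0.978 CPM in knockouts and 2.31 ± 0.360 CPM in controls (-0.13, SE 0.38, edgeR adjusted p = 0.922), and without knockout 2 its estimate was 0.20 (SE 0.22).

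**Figure D2:**
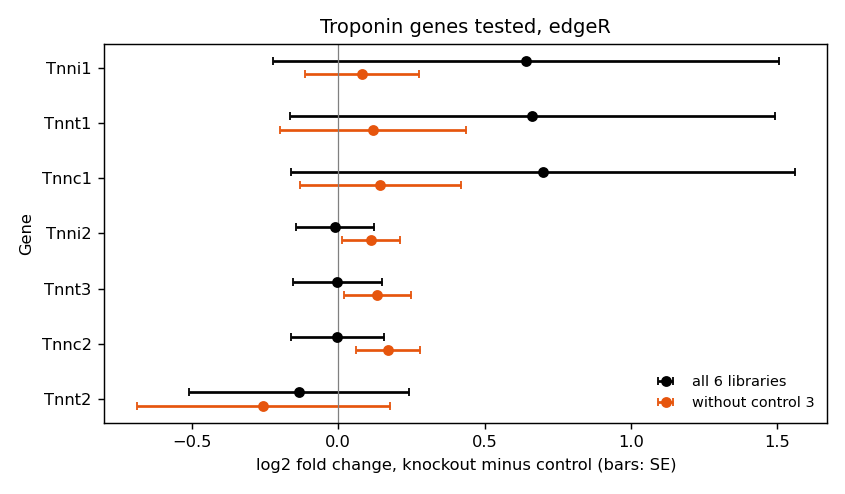
log2 fold change of knockout minus control (horizontal axis; points with SE bars) for the 7 troponin genes tested by edgeR, with all 6 libraries in black and without control 3 in orange. The slow genes move from between 0.64 and 0.70 to between 0.081 and 0.14 when control 3 is left out, and their bars shorten.

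A ratio within a library does not depend on its size, so the slow gene was set over its fast counterpart for each subunit. For troponin I, Tnni1 was 0.242%, 0.179% and 0.304% of Tnni2 per length in knockouts 1 to 3, against 0.243%, 0.248% and 0.00752% in controls 1 to 3. For troponin T, Tnnt1 was 0.328%, 0.214% and 0.557% of Tnnt3 in knockouts, against 0.355%, 0.373% and 0.0168% in controls. For troponin C, Tnnc1 was 0.537%, 0.387% and 0.884% of Tnnc2 in knockouts, against 0.591%, 0.616% and 0.0200% in controls. Controls 1 and 2 agreed closely with each other in every subunit and lay inside the range of the knockouts, while control 3 lay below every other library.

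The mean log2 ratio for troponin I was -8.73 ± 0.38 in knockouts and -10.35 ± 2.90 in controls (SD, n = 3 each), a difference of 1.62 (exact permutation test, two-sided p = 0.7). The difference was 1.38 for troponin T and 1.55 for troponin C (exact permutation p = 0.7 in each). These differences average the log2 values of single libraries, and the edgeR estimates above were fitted to counts. Their sizes are therefore not directly comparable. The p adjusted over the 3 ratios was 0.7 as well, and 3 against 3 libraries cannot give a p below 0.1. Without control 3 the differences turned to -0.058 for troponin I, -0.10 for troponin T and -0.087 for troponin C (exact permutation p between 0.7 and 0.8). The sign of the slow to fast difference was thus set by 1 control library. The 3 slow genes summed over the 3 fast genes gave 0.363%, 0.251% and 0.573% in knockouts, against 0.388%, 0.402% and 0.0153% in controls.

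**Figure D3:**
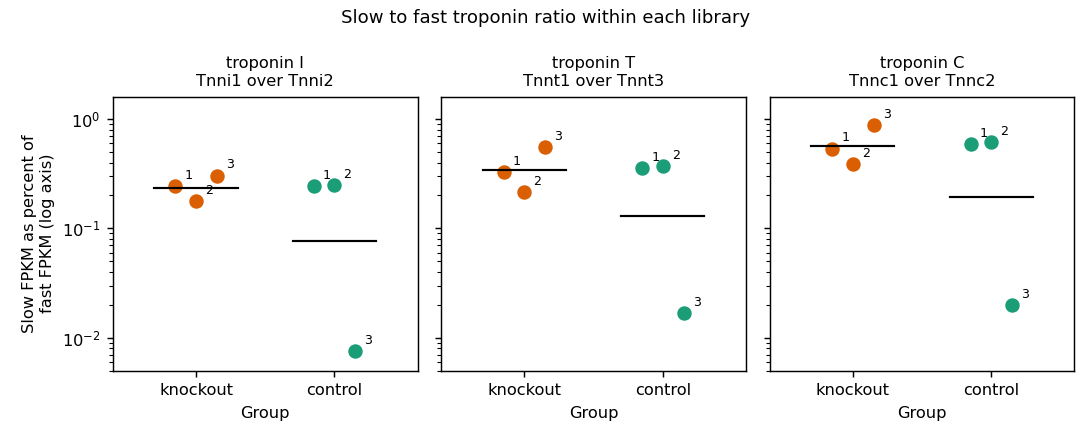
Slow troponin FPKM as a percentage of fast troponin FPKM in each library (log axis), with 1 panel per subunit, knockouts left of controls, numbers giving the replicate and horizontal lines the geometric mean of a group. Control 3 lies between 0.00752% and 0.0200%, and all other libraries lie between 0.179% and 0.884%.

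Over all 6 libraries the proportions among subunits of 1 fibre type varied far less than the slow to fast ratio, mainly through control 3. In the other 5 libraries the contrast was smaller. There Tnni1 was 0.179% to 0.304% of Tnni2 and Tnnt1 0.214% to 0.557% of Tnnt3, while Tnnt1 was 2.27 to 3.21 times Tnni1. Per length, Tnnc1 was 2.40, 2.26 and 2.80 times Tnni1 in knockouts, against 2.45, 2.39 and 2.87 times in controls. Tnnt1 was 2.59, 2.27 and 3.21 times Tnni1 in knockouts, against 2.68, 2.71 and 4.19 times in controls, the last value resting on the 75 Tnni1 counts of control 3. Among fast genes Tnnt3 was 1.91, 1.90 and 1.75 times Tnni2 in knockouts, against 1.84, 1.80 and 1.87 times in controls. Tnnc2 was 1.08, 1.04 and 0.960 times Tnni2 in knockouts, against 1.01, 0.963 and 1.08 times in controls. Slow and fast sets therefore each kept their internal proportions within 2-fold in all 6 libraries, including control 3.

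Other slow fibre genes were compared with the slow troponins from a list of 14. Control 3 was the lowest library for 12 of the 14, beside 21.7% of all tested genes, with the median of the other libraries between 0.858 and 40.4 times control 3. The exceptions were Myl6b and Pln. Myh7 was at 235, 180 and 416 CPM in knockouts, against 293, 268 and 6.63 CPM in controls, a pattern close to that of the slow troponins. Myh4, the myosin heavy chain of type 2B fast fibres, was at 54574, 76120 and 50978 CPM in knockouts, against 46959, 41516 and 52314 CPM in controls. Per length Myh7 was 0.429%, 0.235% and 0.814% of Myh4 in knockouts, against 0.623%, 0.643% and 0.0126% in controls.

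None of the 14 slow fibre genes passed over all genes, and 10 had a negative log2 fold change (median -0.15, against -0.0037 for all tested genes). The 2 with the smallest p were Myl6b, a myosin light chain (log2 fold change -0.41, SE 0.13, edgeR adjusted p = 0.363), and Pln, phospholamban, which restrains the calcium pump of slow fibres (-0.69, SE 0.25, adjusted p = 0.383). Without control 3, 12 of the 14 were negative with a median of -0.52, whereas the 3 slow troponins were between 0.081 and 0.14. The slow myosin light chains Myl2 (-0.75, SE 0.53) and Myl3 (-0.72, SE 0.44) were among the negative genes, with Myh7 at -0.019 (SE 0.33), and none passed by edgeR over all genes. The median of the 14 was positive by limma-voom (0.13), without knockout 2 (0.11), control 1 (0.11) or control 2 (0.18), and with limma on log2 of FPKM plus 1 (0.0056) or plus 0.1 (0.046), so its direction depends on single libraries and on the method. Myl2 and Myl3 were picked after their values were seen, and the difference between slow troponins and other slow fibre genes was not tested.

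**Figure D4:**
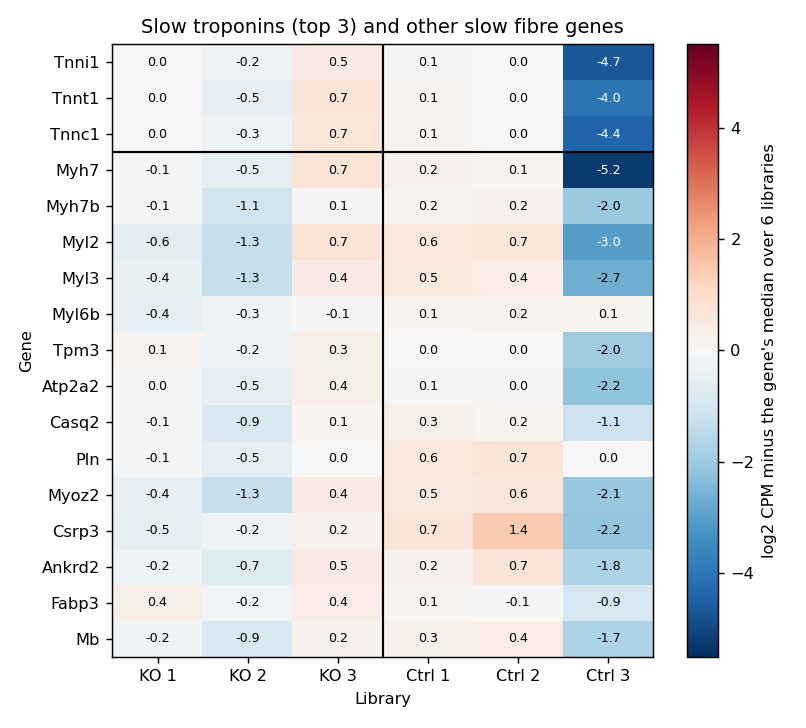
log2 CPM of each gene minus its median over the 6 libraries (colour and printed value), with the 3 slow troponins in the top rows, 14 other slow fibre genes below, knockouts left and controls right. Control 3 is the lowest library for the slow troponins and for 12 of the 14 other genes.

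Of 17 fast fibre genes none was called, 14 had a positive log2 fold change and the median was 0.14. That median was 0.037 without control 2, 0.076 without knockout 2 and 0.27 without control 3. Those with the smallest p were Myoz3, a Z-disc protein (0.26, SE 0.12, edgeR adjusted p = 0.473), and Myh4 (0.37, SE 0.19, adjusted p = 0.516). Control 3 was the highest library for 6 of the 17, beside 22.3% of all tested genes, and the lowest for Myh1 and Myh2, the other adult fast myosin heavy chains. Myh2, of type 2A fibres, was at 3243, 2182 and 4697 CPM in knockouts, against 4460, 4711 and 1193 CPM in controls. Myh1 and Myh2 were picked after their values were seen.

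Among 15 other thin filament genes 12 were positive, with a median of 0.080, and none was called. Without control 3, 6 of them were negative and the median was 0.11. Neb, the giant protein nebulin that runs along the thin filament, was at 5699, 6280 and 6250 CPM in knockouts, against 4813, 4841 and 4915 CPM in controls (0.32, SE 0.096, edgeR adjusted p = 0.343). Its groups did not overlap, which held for 17.3% of all tested genes. Of 8 markers of skeletal muscle fibres, 6 were positive (median 0.19) and none was called. Of these markers Ckm, Myh4, Myh1 and Mylpf are also in the fast fibre list, and Acta1 and Neb in the thin filament list. Tpm1, Tpm3 and Actc1 are likewise in more than 1 list, so counts of positive genes are not separate between lists. Ttn, the giant sarcomere spring titin, was at 8922, 11745 and 15112 CPM in knockouts, against 9109, 8732 and 9230 CPM in controls (0.40, SE 0.19, adjusted p = 0.466). Kbtbd13, a thin filament regulator, was at 12.8, 15.1 and 12.9 CPM in knockouts, against 19.4, 22.8 and 15.3 CPM in controls (-0.50, SE 0.15, adjusted p = 0.363). Among 26 regulators of fibre type 14 were positive, with a median of 0.059, and none was called. Without control 3, 14 of the 26 were negative and the median was -0.071. Those with the smallest p were the coactivator Ppargc1a (2.44, SE 0.52, adjusted p = 0.241) and the nuclear receptor Ppard (0.34, SE 0.11, adjusted p = 0.363). Ppargc1a passed without knockout 3 (2.86, adjusted p = 0.0149).

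Markers of developing and regenerating fibres, in which Tnnt2 is also made, were measured beside it. Of 8 tested, 6 were positive with a median of 0.24, and none was called. Actc1, the cardiac and embryonic actin, was at 387, 637 and 277 CPM in knockouts, against 117, 65.0 and 287 CPM in controls (1.47, SE 0.54, edgeR adjusted p = 0.383). Without control 3 its estimate was 2.25 (SE 0.42, edgeR adjusted p = 0.252). Myh8, the perinatal myosin, was at 687, 977 and 701 CPM in knockouts, against 576, 616 and 616 CPM in controls (0.39, SE 0.14, adjusted p = 0.384). Knockout 2 was the highest library for both genes and the lowest for Tnnt2. Among the other tested markers Myl4 also peaked in knockout 2. Chrna1, Ncam1 and Runx1 peaked in knockout 1, Myog in control 3 and Myh3 in control 1. Like Tnnt2, Myh3 had its lowest knockout value in knockout 2 (2.78, 1.29 and 5.15 CPM in knockouts 1 to 3). Controls 1 to 3 held 8.24, 5.91 and 0.938 CPM of Myh3, with an estimate of -0.70 (SE 0.74). These further markers were picked after their values were seen. Smooth muscle markers summed to 231, 204 and 225 CPM in knockouts, against 191, 205 and 220 CPM in controls, so control 3 did not stand apart for them. Of these 6 markers none was called, with Acta2 at 0.27 (SE 0.12, adjusted p = 0.451) and Myh11 at 0.23 (SE 0.12, adjusted p = 0.501).

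Over the 6 libraries, the 5 genes whose centred log2 CPM profile lay nearest the mean of the 3 slow troponins, of 12124 candidates, were Sbk3, Gm44502, Myh7, Myh6 and Myom3. Their root mean square distances were 0.35, 0.35, 0.36, 0.39 and 0.75 log2 units, and those of the slow troponins themselves were between 0.033 and 0.14. The mean slow profile stood at -3.67 log2 units in control 3 and between 0.32 and 1.28 in the other libraries. Nearness to it therefore mostly reflects a low value in control 3. Sbk3, Gm44502, Myh7 and Myh6 were among the 17 genes at least 10-fold lower in that library. Sbk3 was at 1.81, 1.51 and 1.92 CPM in knockouts, against 0.977, 1.30 and 0.0303 CPM in controls. Its value in control 3 lay below the 0.0454 CPM of 3 counts. Gm44502 was at 8.10, 8.92 and 9.07 CPM in knockouts, against 6.60, 6.59 and 0.469 CPM in controls. Unlike in the slow troponins, every knockout lay above every control in Sbk3 and Gm44502. Groups did not overlap, in either direction, for 17.3% of all tested genes. Myom3, a myomesin of the sarcomere's M-band, was at 58.8, 50.8 and 106 CPM in knockouts, against 103, 131 and 13.1 CPM in controls.

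For the fast troponins the nearest were Tmem184c, Scrn2, Rpl31, Ampd1 and Sepw1, at distances of 0.015, 0.020, 0.026, 0.027 and 0.029. The fast troponin profile varied little (SD 0.16 log2 units, against 1.82 for the slow), so many genes with small changes could lie near it. Ampd1, the muscle adenylate deaminase, was at 1415, 1565 and 1376 CPM in knockouts, against 1337, 1216 and 1678 CPM in controls. Rpl31, a ribosomal protein, was at 157, 170 and 155 CPM in knockouts, against 148, 140 and 193 CPM in controls.

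Genes beside or over the troponin loci did not share the drop of the slow troponins in control 3. Nisch, which in GENCODE vM21 spans Tnnc1 on the opposite strand with no exonic base in common and in RefSeq ends 1485 bases away, was at 114, 109 and 113 CPM in knockouts, against 121, 127 and 113 CPM in controls. Phlda3, the nearest gene below Tnni1, had 13023, 10181 and 11852 counts in knockouts, against 10453, 13693 and 13044 counts in controls. Ppp1r12c, 805 bases from Tnnt1, had 2212, 1854 and 1673 counts in knockouts, against 1612, 1784 and 2005 counts in controls. Lad1, between Tnni1 and Tnnt2, had at most 6 counts in any library.

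Some fast loci overlap other genes. GENCODE vM21 gives Ube2c on the strand opposite Tnnc2, with 592 exonic bases in common (74% of the Tnnc2 exons), whereas RefSeq places it 4258 bases away. Ube2c had 5, 29 and 16 counts in knockouts, against 0, 15 and 18 counts in controls, while Tnnc2 had between 399162 and 682928, so reads shared between them could change Tnnc2 by little and Ube2c by much. Prr33, opposite Tnnt3 with no exonic base in common, was at 232, 258 and 315 CPM in knockouts, against 262, 264 and 286 CPM in controls. Whether the counting used the strand is not given in the sources used here. The deposited values are per gene, so splice forms could not be told apart; the table lists 15 transcripts for Tnnt3, 9 for Tnnt2 and 3 for Tnnt1.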

How the data were processed

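The members, the gene lists and the tests were chosen with earlier results of these data known. The deposited table holds unnormalized read counts per gene beside FPKM and TPM values, which per the file headers the authors derived themselves. The submitters' processing notes name StringTie 1.3.4d, Bowtie2 2.3.4.1, FastQC 0.11.7, bcl2fastq 2.20.0 and the mm10 build, without roles. Per the labels' protocols, libraries came from a kit that keeps the strand; the counting method is not given in the sources used here.

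Counts of all genes were fitted with edgeR 4.0.16 in R 4.3.3 (filterByExpr with a minimum count of 10, TMM, quasi-likelihood test, Benjamini-Hochberg adjustment over 14109 genes, threshold 0.05). The SE of a log2 fold change came from the F statistic. CPM values use TMM-scaled library sizes, and log2 CPM a prior count of 2. At these depths 3 counts, the limit a count of 0 allows, are 0.0454 to 0.0598 CPM. Levels of different genes were compared in FPKM, and ratios were tested by exact permutation over libraries. The fit was tested on counts simulated with the fitted dispersions and no library set apart. That test therefore does not cover results that rest on a library such as control 3. No pair of libraries within a group was a duplicate, since each pair's chi-square divided by its degrees of freedom was at least 33.6. That lowest value was for control 1 with control 2. Control 3 gave 108 with control 1 and 200 with control 2, and pairs of knockouts gave 50.3 to 96.9.

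Named are Usp21, the members, Myh7 and Myh4, and the 2 smallest p of each list (no list gene passed). The 5 nearest profiles per fibre type by root mean square distance and adjacent genes are named too. Ckm was named outside these rules, as a skeletal muscle fibre marker, and other exceptions are marked. Alternatives were DESeq2 1.42.0, limma 3.58.1 (voom, or log2 of FPKM plus 1 or 0.1), other scalings and filters, a replicate term, TPM or counts in ratios, and leaving out each library.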

Additional observations from a re-analysis of the deposited data

How the results depend on the processing

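No troponin gene was called by edgeR, DESeq2's Wald test, limma-voom or limma on FPKM, under the other scalings and filters tried, or without any 1 library, and the same held with the replicate term. The difference in slow to fast ratio kept its sign with read counts, TPM and FPKM plus 1. It ran from -0.058 to 2.46 for troponin I, from -0.10 to 2.14 for troponin T and from -0.087 to 2.39 for troponin C when single libraries were left out, and was negative only without control 3. Over all genes, 8 were called, compared with 290 by DESeq2's Wald test (554 genes without an adjusted p), 5 by limma-voom, 1 by limma on log2 of FPKM plus 1, 1 with plus 0.1, and 1 to 141 when single libraries were left out (141 without knockout 3). Calls among the list genes ran from 0 to 1 without single libraries. With the replicate block, 0 genes were called over all genes (1164 at an unadjusted p under 0.05), Usp21 had an edgeR adjusted p of 0.200, and the exact sign-flip p of each ratio was 1.0. Same-numbered libraries did not deviate together (correlation across genes of deviations from group means -0.0082, -0.19 and -0.098), so the numbers are not taken as pairs. The slow estimates were larger under limma-voom, at 1.72 for Tnni1, 1.43 for Tnnt1 and 1.64 for Tnnc1, without passing, and the cause was not tested. Depth limits Tnni3, with at most 34 counts in a library.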
